A study of Mus musculus with 2 samples.

Results

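The miR-181 family of the mouse lung was described from 6 microRNA (miRNA) genes, Mir181a-1, Mir181b-1, Mir181a-2, Mir181b-2, Mir181c and Mir181d, out of 1973 miRNA genes listed in the count tables. They were chosen by name, through Ensembl identifiers matched to mouse GENCODE symbols, and all 6 were found. The data are miRNA sequencing of whole lung from B6NCrl embryos at 14.5 days of age (E14.5), in 2 libraries that form 1 group. The labels name no treatment, altered allele or second stage, so nothing was contrasted beyond the replicates and the genes themselves. The labels describe each library as a lung of 1 pup but give pooled sexes, so the number of embryos per library is unsettled, and the collection days of the replicates differ, which cannot be told apart from the replicates.

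A miRNA gene is transcribed as a longer RNA that folds into a hairpin. Cutting the hairpin releases a 5p and a 3p mature arm, and an arm loaded into Argonaute pairs with messenger RNAs mainly through its seed, bases 2 to 8, and lowers their translation and stability. The miR-181 family is best known for tuning antigen receptor signalling in lymphocyte development, and miR-181b for dampening NF-kB signalling in vascular endothelium. The 6 genes lie as 3 pairs, each an a-like and a b-like hairpin side by side.

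The 5p arms are shown first because the family is defined by them. In the RefSeq sequences (build GRCm38.p6) the 6 genes give 4 distinct 5p arms, with the seed in capitals:
miR-181a-5p (Mir181a-1 and Mir181a-2): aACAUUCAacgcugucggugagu
miR-181b-5p (Mir181b-1 and Mir181b-2): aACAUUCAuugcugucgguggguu
miR-181c-5p (Mir181c): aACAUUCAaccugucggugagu
miR-181d-5p (Mir181d): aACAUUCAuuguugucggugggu
All 4 carry the seed ACAUUCA, and no gene outside the family (0 in the table) had an annotated mature arm with it. Counting positions from 1 at the 5' end of the first-named arm, miR-181b-5p differs from miR-181a-5p by A9U, C10U and A21G and is 1 base longer. miR-181c-5p equals miR-181a-5p without its base 11, an edit distance of 1. miR-181d-5p differs from miR-181b-5p by C12U and is 1 base shorter. The 5p arms thus form an a and c type and a b and d type, and each genomic pair holds 1 gene of either type.

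The 3p arms are shown because they separate the copies that the 5p arms do not. Again with bases 2 to 8 in capitals, they are:
miR-181a-1-3p: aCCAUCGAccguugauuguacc
miR-181a-2-3p: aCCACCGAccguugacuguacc
miR-181c-3p: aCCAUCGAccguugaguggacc
miR-181b-1-3p: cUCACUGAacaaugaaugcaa
miR-181b-2-3p: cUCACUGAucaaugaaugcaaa
miR-181d-3p: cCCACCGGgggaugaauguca
Each of these 6 sequences occurs in 1 miRNA hairpin only. The 3p arm of Mir181a-2 differs from that of Mir181a-1 by U5C and U16C, of which U5C lies in the seed, and that of Mir181c differs from Mir181a-1 by U16G and U19G, both outside it. Mir181a-1 and Mir181c share a 3p seed, as do Mir181b-1 and Mir181b-2, while those of Mir181a-2 and Mir181d belong to 1 gene each.

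Reads that align to several places were counted for no gene in the deposited tables, so a 5p arm present at 2 loci cannot be assigned from its own sequence. The hairpins of the copies are printed for that reason, with the longest stretch identical in both copies in capitals:
Mir181a-1: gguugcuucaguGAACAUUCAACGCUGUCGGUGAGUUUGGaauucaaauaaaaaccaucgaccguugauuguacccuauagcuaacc
Mir181a-2: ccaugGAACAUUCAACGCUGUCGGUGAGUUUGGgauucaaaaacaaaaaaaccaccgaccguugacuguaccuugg
Mir181b-1: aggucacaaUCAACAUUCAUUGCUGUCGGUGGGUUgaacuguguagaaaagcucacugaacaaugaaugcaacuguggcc
Mir181b-2: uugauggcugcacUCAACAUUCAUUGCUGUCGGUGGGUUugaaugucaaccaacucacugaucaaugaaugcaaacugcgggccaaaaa
The copies of miR-181a share 28 bases, which are the 23 bases of the 5p arm with 1 base before and 4 after it. The copies of miR-181b share 26 bases, the 24 of the 5p arm with 2 before it and 0 after it, so their hairpins part at the first base past the annotated 3' end of the arm. Among windows of 22 bases, about the length of a miRNA, 59 of 66 (89.4%) in Mir181a-1 and 48 of 55 (87.3%) in Mir181a-2 occurred in no other of 1894 miRNA hairpins. The same held for 54 of 59 (91.5%) in Mir181b-1 and 63 of 68 (92.6%) in Mir181b-2. In Mir181c (68 windows) and Mir181d (51 windows) every window was found once. The comparison covered miRNA hairpins and not the rest of the genome, and the deposited counts do not say which arm a read came from.

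**Figure D1:**
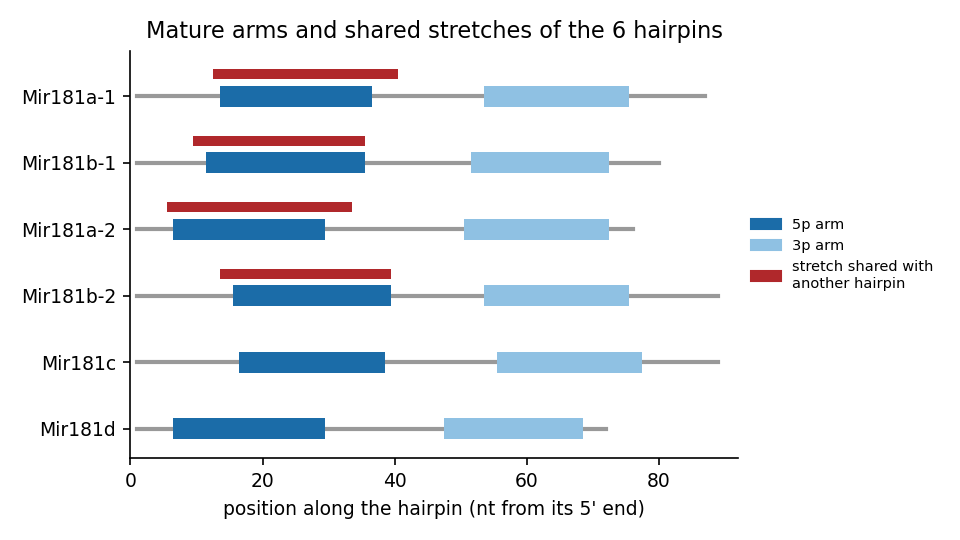
Position along each of the 6 hairpins in nucleotides (nt) from its 5' end (x axis), with the 5p arm in dark blue, the 3p arm in light blue and any stretch shared with another miRNA hairpin in red. The red bars, 28 nt in the miR-181a copies and 26 nt in the miR-181b copies, cover the 5p arms, and Mir181c and Mir181d have none.

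In mm10 coordinates the first pair lies on the plus strand of chromosome 1, with Mir181a-1 (ENSMUSG00000065565) at 137966455 to 137966541 and Mir181b-1 (ENSMUSG00000065458) at 137966639 to 137966718, 97 bp apart. GENCODE M21 places both in an intron of the non-coding host transcript Gm4258 and overlapping an exon of the long non-coding RNA A430106G13Rik, all on the same strand. The second pair lies on the plus strand of chromosome 2, Mir181a-2 (ENSMUSG00000065423) at 38852735 to 38852810 and Mir181b-2 (ENSMUSG00000065578) at 38853830 to 38853918, 1019 bp apart. Both sit within an intron of Nr6a1, an orphan nuclear receptor gene read from the opposite strand. The third pair lies on the minus strand of chromosome 8, Mir181c (ENSMUSG00000065483) at 84178873 to 84178961 and Mir181d (ENSMUSG00000076338) at 84178716 to 84178787, 85 bp apart in an intron of the germ cell gene Nanos3 on the same strand.

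Levels are gene-strand counts per 1000000 gene-strand miRNA counts (CPM). The libraries held 5128214 such counts in replicate 1 and 2332032 in replicate 2, so 1 count was 0.195 and 0.429 CPM. Multimapping reads numbered 3359798 and 1503822, which is 49.6 and 39.2 times the counts of the whole miR-181 family, and how many of them came from miR-181 was not analysed here. In both libraries the 5 listed miRNAs of lung epithelium (the miR-200 family) were present at 3.33% and 3.37% of counts, and the endothelial Mir126a at 7.60% and 5.84%. The white blood cell list, of interest because miR-181 is abundant in lymphocytes, had 4 of its 6 measured genes at 10 or more counts in both libraries. It held 0.0848% of counts in each, with Mir142b at 0, but Mir142 and Mir142hg of that list were not among the genes counted. The 4 genes were Mir223 (589 and 540 CPM), Mir146 (156 and 186), Mir155 (63.2 and 88.8) and Mir150 (39.0 and 33.4). The share thus rests mainly on Mir223 and does not measure lymphocytes by themselves. Of the striated muscle list 4 of 8 measured genes passed the minimum of 10 counts, and Mir133a-1 and Mir133a-2 were at 0. Multimapping reads were counted for no gene, so a 0 in these lists need not mean absence. The share of the striated muscle list was 0.0368% in replicate 1 and 0.00562% in replicate 2. The heart miRNA Mir208a, at 299 and 11.6 CPM, held 1533 of its 1889 counts in replicate 1 and 27 of 131 in replicate 2. Mir208b (49.9 and 25.7 CPM) and Mir499 (12.5 and 4.72 CPM) were also lower in replicate 2. Mir206 went the other way, from 6.24 to 12.9 CPM. The part of these shifts in the differences between the libraries given below was not tested.

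Mir181c and Mir181d, the chromosome 8 pair, held most of the family's assigned counts. Mir181c had 27162 counts (5297 CPM) in replicate 1 and 13516 (5796 CPM) in replicate 2, a mean of 5546 ± 353 CPM (SD, n = 2). Mir181d had 22529 counts (4393 CPM) and 14491 (6214 CPM), a mean of 5304 ± 1287 CPM. Mir181c was the higher of the pair in replicate 1 and Mir181d in replicate 2, and their means differ by less than either SD. In the order of all 1973 genes by mean CPM they stood at places 40 and 43.

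Mir181a-1 and Mir181b-2 followed at less than the level of the chromosome 8 genes in both libraries. Mir181a-1 had 10675 counts (2082 CPM) in replicate 1 and 4568 (1959 CPM) in replicate 2, a mean of 2020 ± 86.8 CPM, place 73. Mir181b-2 had 6440 counts (1256 CPM) and 5384 (2309 CPM), a mean of 1782 ± 745 CPM, place 79. Their order also differed between the libraries, so these neighbours were not separated beyond their spread.

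The partners of those genes were far lower. Mir181a-2 had 766 counts (149 CPM) in replicate 1 and 277 (119 CPM) in replicate 2, a mean of 134 ± 21.6 CPM, place 177. Mir181b-1 had 150 counts (29.2 CPM) and 114 (48.9 CPM), a mean of 39.1 ± 13.9 CPM, place 232. In each library Mir181a-2 lay below the 4 higher members and above Mir181b-1, with no overlap of the libraries' values. Each of the 6 members reached 10 counts in both libraries, as did 320 of 1973 genes (16.2%). The opposite strand of the 6 genes held 1 count in all, at Mir181a-2 in replicate 1.

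**Figure D2:**
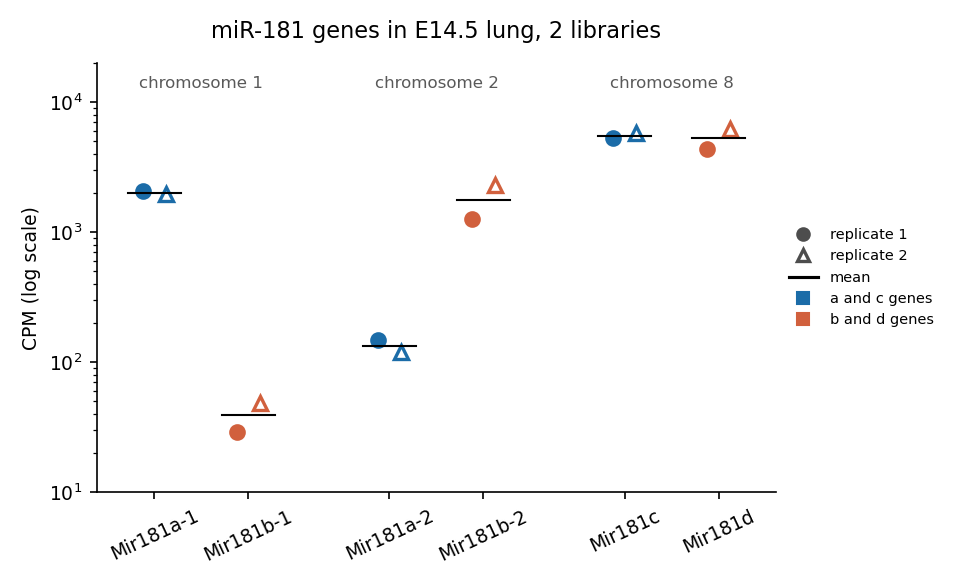
CPM on a log scale (y axis) of each miR-181 gene, grouped by chromosome, with a filled circle for replicate 1, an open triangle for replicate 2 and a line for the mean (n = 2). Within the chromosome 1 pair the a gene is the high one (2020 CPM against 39.1), within the chromosome 2 pair the b gene (1782 CPM against 134), and the chromosome 8 genes lie together at 5546 and 5304 CPM.

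Summed over its genes, the family held 1.32% of counts in replicate 1 (95% exact binomial interval 1.31 to 1.33) and 1.64% in replicate 2 (1.63 to 1.66), a mean of 1.48% ± 0.229. These intervals cover counting error only, since amplified reads need not be independent molecules. The chromosome 8 pair made up 73.4% of the family's counts in replicate 1 and 73.0% in replicate 2, a nearly constant share. The chromosome 1 pair made up 16.0% and 12.2%, and the chromosome 2 pair 10.6% and 14.8%, so these pairs exchanged places.

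As ratios of summed counts within a library, the c/d cluster was 4.59 times the a-1/b-1 cluster in replicate 1 and 5.98 times in replicate 2 (log2 ratio 2.39 ± 0.27, SD, n = 2). It was 6.90 and 4.95 times the a-2/b-2 cluster (log2 ratio 2.55 ± 0.34). Both ratios were on the same side of 0 in the 2 libraries and larger than their spread. The a-1/b-1 cluster was 1.50-fold above the a-2/b-2 cluster in replicate 1 but 1.21-fold below it in replicate 2, and the log2 ratio of 0.16 ± 0.61 does not separate them. No sign test was run, because its exact two-sided p cannot fall under 0.5 with only 2 libraries. The a-1/b-1 and a-2/b-2 sums hold only reads assigned to 1 copy, and the c/d sum does not lose its 5p reads to another copy in this way, so the order of the clusters in these counts cannot be told apart from that loss.

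**Figure D3:**
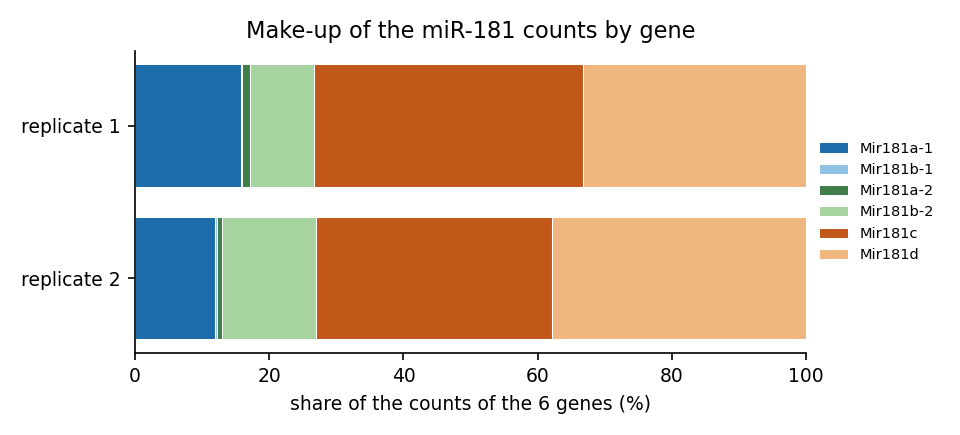
Share of the counts of the 6 miR-181 genes (x axis, percent) taken by each gene in replicate 1 and replicate 2, with 1 hue per genomic pair. Mir181c and Mir181d together fill 73.4% and 73.0% of the bars, and Mir181b-2 grows from 9.51% to 14.0% as Mir181a-1 goes from 15.8% to 11.9%.

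Within the pairs, neighbouring hairpins were unequal on chromosomes 1 and 2 and in opposite directions. Mir181a-1 held 71.2 times the counts of its neighbour Mir181b-1 in replicate 1 and 40.1 times in replicate 2 (log2 ratio 5.74 ± 0.59). Mir181a-2 lay 8.41-fold and 19.4-fold below Mir181b-2 (log2 ratio -3.68 ± 0.85). Mir181c and Mir181d were within 1.21-fold and 1.07-fold of each other with the order reversed (log2 ratio 0.08 ± 0.26). For comparison, 88 other pairs of neighbouring miRNA genes on one strand, at most 10 kb apart and each with at least 10 counts in both libraries, had a median absolute log2 ratio of 2.81, with quartiles of 1.10 and 4.71. Each pair was placed by the absolute value of its mean log2 ratio over the libraries, so a pair whose order reversed came out low. Mir181c and Mir181d were such a pair, at 0.27 and 0.10 in absolute log2 per library. So was the pair placed below them, at 0.48 and 0.40. Of all 91 pairs, 14 were more unequal by this measure than Mir181a-1 and Mir181b-1, 33 more than Mir181a-2 and Mir181b-2, and 89 more than Mir181c and Mir181d. Mir181a-1 and Mir181b-1 thus lay above the upper quartile of the other pairs, Mir181a-2 and Mir181b-2 between the quartiles, and Mir181c and Mir181d below the lower one. On chromosomes 1 and 2 these counts leave out reads that align to both copies, so these placings cannot be told apart from that loss. How far the other pairs lose reads in this way was not analysed.

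The gene that led differed between the copies: the chromosome 1 copy for miR-181a and the chromosome 2 copy for miR-181b. Mir181a-1 held 13.9 and 16.5 times the counts of Mir181a-2 (log2 ratio 3.92 ± 0.17). Mir181b-2 held 42.9 and 47.2 times those of Mir181b-1 (log2 ratio 5.49 ± 0.10). Among the genes counted, 34 pairs share a whole mature sequence found in no other gene's annotation, and 17 of them had at least 10 counts for both genes in both libraries. Among these 17 pairs the miR-181b copies were the most unequal and the miR-181a copies came sixth (place 6). The 15 other pairs had a median absolute log2 ratio of 1.62, from 0.21 for Mirlet7c-1 and Mirlet7c-2 to 4.77 for Mir7-1 and Mir7-2, and in all 15 the same copy led in both libraries. Each of these ratios rests on reads that could be assigned to 1 gene, so it does not measure the output of the loci.

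**Figure D4:**
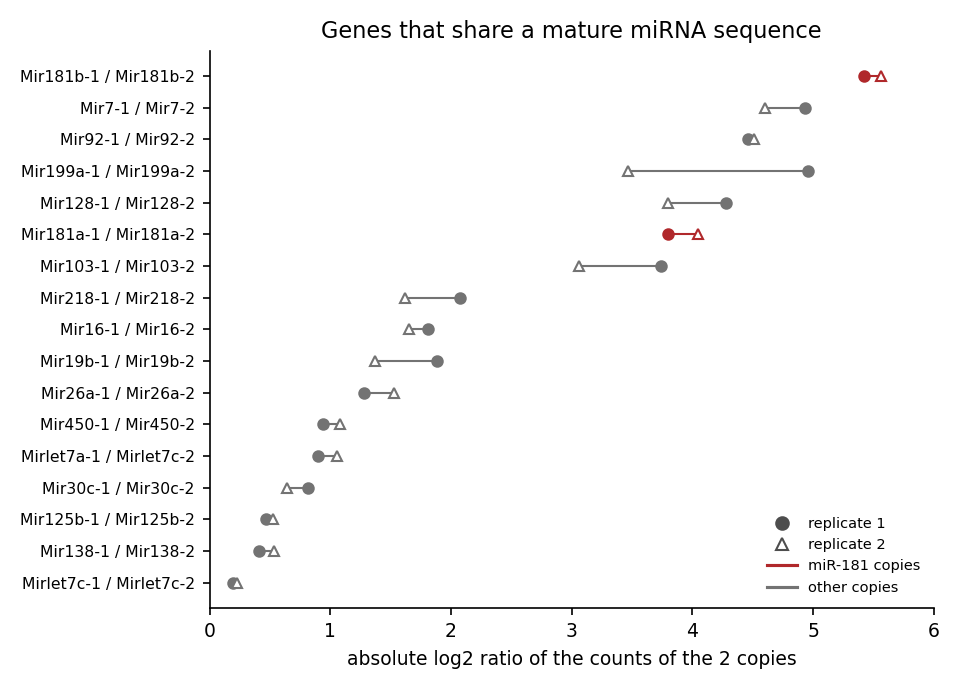
Absolute log2 ratio of the counts (x axis) between the genes of each of 17 pairs that share a mature miRNA sequence, with a filled circle for replicate 1 and an open triangle for replicate 2. The miR-181 pairs are in red, at 5.42 and 5.56 for miR-181b and 3.80 and 4.04 for miR-181a, and the other pairs in grey.

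Between the libraries the b and d genes were higher in replicate 2 and the a and c genes were lower or close to equal. Log2 ratios of replicate 2 to replicate 1 were taken on CPM scaled by TMM (trimmed mean of M-values, which equalises the bulk of genes), with a pseudocount of 1 CPM. They were 0.79 for Mir181b-2, 0.63 for Mir181b-1 and 0.41 for Mir181d. For the a and c genes they were 0.04 for Mir181c, -0.18 for Mir181a-1 and -0.42 for Mir181a-2. The members' median was 0.23 and that of all 404 genes tested -0.03. By an exact two-sided binomial test of the reads given the scaled library sizes, with Benjamini-Hochberg adjustment over the 404 genes, 6 of 6 members passed 0.05, beside a percent called of 41.8% over all genes. Among genes of at least 100 CPM, the range of all members but Mir181b-1, 73.8% were called, so passing sets these genes apart from few others. Of the 6 members 4 were higher in replicate 2, where 17.8% of all genes tested were called in that direction, and 2 in replicate 1, where 24% were.

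The adjusted p of the exact binomial test was 3.58e-186 for Mir181b-2 and 1.09e-152 for Mir181d. It was 1.55e-11 for Mir181a-1, 9.51e-05 for Mir181a-2, 0.00122 for Mir181b-1 and 0.0201 for Mir181c. These tests compare the reads of 2 libraries and not conditions. A dispersion for edgeR's exact test could only be estimated from the same 2 libraries. The difference under test thus sets its own spread, so few calls follow by construction and do not show that the replicates agree. When the spread between the replicates was taken in as a common dispersion of 0.0337, a coefficient of variation of 18.3%, edgeR's exact test called 0 of 6 members, each at adjusted p = 1. In that test 1 member, Mir181b-2, and 16 of 404 genes had an unadjusted p under 0.05, and 1 gene (0.248%) passed adjustment. The ratio of Mir181c was -0.0069 with DESeq2 size factors (exact binomial adjusted p = 0.812), so its side of 0 rests on the scaling.

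The difference between partners needs no scaling between libraries. From replicate 1 to replicate 2 the log2 ratio of the a or c gene to its neighbour changed by -0.83 for Mir181a-1 over Mir181b-1 (95% interval from counting error -1.19 to -0.46). It changed by -1.21 for Mir181a-2 over Mir181b-2 (-1.42 to -1.0) and by -0.37 for Mir181c over Mir181d (-0.41 to -0.33). All 3 pairs moved towards the b or d gene. The 88 other neighbouring pairs changed by a median of 0.27 in absolute log2, with quartiles of 0.10 and 0.44 and a maximum of 0.95. Of the 91 pairs, 0 changed more than Mir181a-2 and Mir181b-2, 4 changed more than Mir181a-1 and Mir181b-1, and 30 changed more than Mir181c and Mir181d. On chromosomes 1 and 2 the counts leave out reads that align to both copies. Whether the share of such reads changed between the libraries was not analysed. By point values, copies of the same 5p arm on different chromosomes changed less relative to each other. Mir181a-1 over Mir181a-2 changed by 0.24 (0.04 to 0.45) and Mir181b-2 over Mir181b-1 by 0.14 (-0.23 to 0.51). Both intervals take in the absolute size of the change of Mir181c over Mir181d, so the copies are not set apart from that pair. That of the miR-181b copies also overlaps the interval of Mir181a-1 over Mir181b-1 in absolute size. Summed by the 5p type of the gene, the a and c genes held 0.753% of counts in replicate 1 and 0.787% in replicate 2, while the b and d genes held 0.568% and 0.857%. These sums leave out reads that align to both copies of miR-181a or of miR-181b, so they do not measure the 5p arms themselves. The types were seen after the values were known, and 2 libraries do not allow a test of them beyond counting error.

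**Figure D5:**
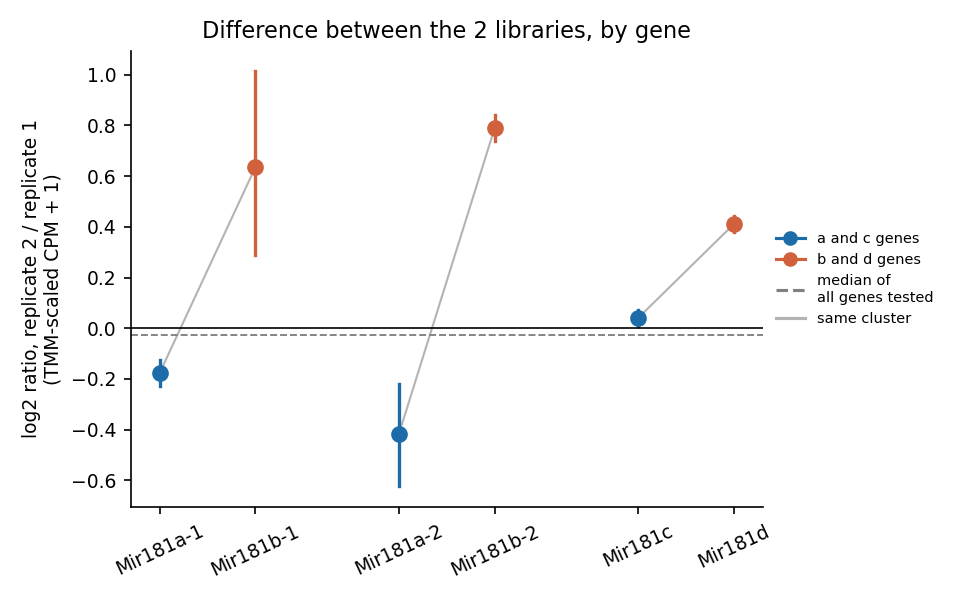
Log2 ratio of replicate 2 to replicate 1 (y axis, TMM-scaled CPM plus 1) of each miR-181 gene, with bars for the 95% interval from counting error and grey lines joining partners of 1 genomic pair. The b and d genes (orange) lie at 0.63, 0.79 and 0.41, above their a and c partners (blue) at -0.18, -0.42 and 0.04, and the dashed line marks the median of all genes tested at -0.03.

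By distance in log2(CPM + 1) over the 2 libraries, the gene outside the family closest to Mir181c was Mir296 (distance 0.04) and that closest to Mir181d was Mir342 (0.09). Mir203, a miRNA of stratified epithelium, lay closest to Mir181a-1 (0.08), and Mir410 of the imprinted Dlk1-Dio3 region to Mir181a-2 (0.04). Mir19b-1 of the miR-17~92 cluster lay closest to Mir181b-1 (0.24). Mir141 of the miR-200 family lay closest to Mir181b-2 (0.52), the widest of the 6 gaps, with 1561 CPM in replicate 1 and 1725 CPM in replicate 2. Such closeness over 2 libraries describes level alone.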

How the data were processed

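The authors deposited, for each of 2 miRNA-seq libraries of E14.5 mouse lung, whole-number counts per miRNA gene, derived from alignments to mm10 with GENCODE M4 per the deposited readme. Which aligner and counter were used, and how reads were trimmed or mismatches allowed, is not stated in those sources. By its values the table holds counts without regard to strand, on the gene strand (used here) and on the opposite strand. Of 10200412 and 4544184 reads, 12.7% and 11.7% were unmapped, 32.9% and 33.1% multimapping and 4.10% and 3.93% without a feature. These entries stayed out of library sizes.

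Of 1973 identifiers 1894 matched GENCODE M21, and all 6 members did. A count of 0 allows up to 3 counts, 0.585 and 1.29 CPM. Mature arms of 6 members and hairpins of 5 came from RefSeq (GRCm38.p6), and windows from GENCODE M21 hairpins. Genes with at least 10 counts over both libraries (404) were tested by an exact binomial test on TMM-scaled sizes. The procedure was tested on simulated counts with counting error only. That setting leaves out the spread between replicates, so it does not show the error rate of the test on these libraries. Shares have exact (Clopper-Pearson) 95% intervals. The labels number the replicates as biological and give each its own collection day, but leave the number of embryos unsettled, so p-values concern only these libraries: those of the binomial test set their difference against counting error, and those of edgeR's exact test also against the spread between them.

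Members and lists were chosen with earlier results of these data known. Named genes are the members, the gene closest to each in level, and marker genes from fixed lists (epithelium, endothelium, white blood cells, erythroid, striated muscle, neurons, smooth muscle) with at least 10 counts in both libraries. Mir7-1, Mir7-2, Mirlet7c-1, Mirlet7c-2, Mir92-1, Mir92-2, Mir16-1, Mir16-2, Mir125b-1 and Mir125b-2, and the markers at 0 counts (Mir142b, Mir133a-1 and Mir133a-2), fall outside that rule and were chosen after their values were seen. Mir142 and Mir142hg of the white blood cell list are named because they were not among the genes counted. Alternatives were other columns, denominators, scalings, filters, pseudocounts, geometric means, windows and leaving out each replicate. No sample column was unused (0). Software was R 4.3.3, edgeR 4.0.16, DESeq2 1.42.0, Python 3.11.15 and scipy 1.17.1.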

Additional observations from a re-analysis of the deposited data

How the results depend on the processing

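No paired analysis was possible because the design has 1 group. With multimapping and other unassigned reads in the denominator the family share was 0.858%; in single libraries it ran from 1.32% to 1.64%. With geometric means of members the c/d cluster stood 4.28 (log2) above a-1/b-1 and 3.50 above a-2/b-2, and a-1/b-1 over a-2/b-2 reversed to -0.79; in single libraries that ratio ran from -0.27 to 0.59. Mir181c over Mir181d reversed to -0.33 with counts per window found once and ran from -0.10 to 0.27 in single libraries. The reversal per window follows from dividing by 68 windows for Mir181c and 51 for Mir181d. Geometric means weigh both genes of a cluster equally, so low members count for more there than in sums. The cause of the sign changes between single libraries was not tested. Windows of 18 bases gave 84.3% (Mir181a-1), 85.7% (Mir181b-1), 81.4% (Mir181a-2) and 87.5% (Mir181b-2) found once. With the common dispersion edgeR called 1 of 404 genes against 169, and 0 members against 6, at unchanged log2 ratios. With library totals 112 genes were called higher in replicate 2 and 65 in replicate 1, against 72 and 97 with TMM. With DESeq2 size factors 5 members passed and Mir181c reversed to -0.0069. In all, 75 alternative values kept their direction and side of the threshold, stayed within 1 SD or, for numbers called, kept a similar total. Of the rest, 7 moved, 8 were counted as lost calls and 5 as reversed. A similar total need not mean the same direction, as the calls with library totals show. A single library always lies within 1 SD of the mean of both, so leaving out a replicate could only reverse a sign. The pseudocount does not enter the binomial test and could not change a call. The 8 values counted as lost calls were all under edgeR's exact test, whose dispersion came from the same libraries. Mir181c, counted as reversed with DESeq2 size factors, lost its call there too (exact binomial adjusted p = 0.812). The tally is therefore no measure of robustness. Depth limits Mir181b-1 most, at 150 and 114 counts.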

Other observations

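Of 77 genes outside the miR-181 family that share a whole annotated mature sequence with another gene, 35 (45.5%) had at least 10 counts in both libraries, against 252 of 833 (30.3%) that share none. Only genes with an annotated mature arm entered here, 916 with the members, so these rates have another base than the 16.2% of all 1973 genes. Besides the miR-181b copies, the Mir92-1 and Mir92-2 genes, which give the same miR-92a arm, were also unequal, at 3966 and 4262 CPM for Mir92-1 against 181 and 187 CPM for Mir92-2. The copies of miR-16 were closer, with Mir16-1 at 3226 and 3806 CPM and Mir16-2 at 919 and 1212 CPM. Mir125b-1 (296 and 273 CPM) and Mir125b-2 (408 and 394 CPM) were within 1.41-fold in the mean of both libraries. The erythroid list held 0.0505% and 0.0404% of counts, the neuron list 0.0452% and 0.0463%, and the smooth muscle list 7.98% and 6.20%.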
